A study of Mus musculus with 16 samples.

Results

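Transcripts of 10 subunit genes of 2 families of ionotropic glutamate receptor were followed in cultured mouse neurons: Grin1, Grin2a, Grin2b, Grin2d and Grin3a of the NMDA receptor, and Grik1, Grik2, Grik3, Grik4 and Grik5 of the kainate receptor. They were chosen by gene name, as the rows of the count table whose Ensembl identifier maps to these symbols. All 10 were found among the 55335 genes of the table, and all 10 passed the expression filter that left 19479 genes for testing. The material was ribosomal RNA-depleted total RNA from primary forebrain neuronal cultures of perinatal mice, transduced with lentiviral vectors, in 16 libraries. A control vector without a hairpin (Empty_Vector), a vector for a short hairpin RNA (shRNA, here the unmutated hairpin), and vectors for that hairpin carrying 2 (shRNA_2bp) or 5 (shRNA_5bp) point mutations were given to 4 libraries each. Every group, the control included, had therefore been exposed to a lentiviral vector. The labels give neither the transcript the hairpin was directed against, nor its sequence, nor the promoter that drove it, so no check of a targeted gene is made here. Whether the 4 libraries of a group were grown as separate cultures is not in the labels, and p-values then measure only the spread between these samples, which may be technical.

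NMDA receptors are glutamate-gated cation channels that need glycine or D-serine as a co-agonist and relief from magnesium block to open, which makes them detectors of coincident activity at synapses. Each holds the obligatory GluN1 subunit (Grin1) with GluN2 subunits that set its kinetics, and the forebrain is known for a developmental shift from GluN2B (Grin2b) towards GluN2A (Grin2a). GluN2D (Grin2d) is enriched early in development and in interneurons, and GluN3A (Grin3a) forms receptors of low calcium permeability in young neurons. Kainate receptors are built from GluK1 to GluK3 (Grik1, Grik2, Grik3), which can form channels by themselves, and from GluK4 and GluK5 (Grik4, Grik5), which join them and raise the affinity for glutamate.

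The title of the series names microRNA dysregulation by hairpins, and microRNA matches in Grin2a, the member that held most of those searched per kilobase among the NMDA receptor genes, are shown. miR-125b has been reported to repress Grin2a in mouse hippocampal neurons, and miR-223 to target glutamate receptor transcripts in mouse brain. The miR-223 report is cited for that receptor class and not for Grin2a. Mature sequences are those of RefSeq (GRCm38.p6) with the seed in capitals, and the sites are from the longest annotated Grin2a 3′ UTR (9929 bases, GENCODE vM21, GRCm38) with the bases that pair with the seed, and the flanking A where present, in capitals.
miR-125b-5p: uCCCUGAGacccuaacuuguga
Grin2a miR-125b-5p match at base 889 of the 3′ UTR (chr16:9576928-9576950, minus strand): ttctggtgatgaCTCAGGGttgt
Grin2a miR-125b-5p match at base 4704 of the 3′ UTR (chr16:9573113-9573135, minus strand): aggatgatagggCTCAGGGggat
miR-223-3p: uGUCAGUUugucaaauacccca
Grin2a miR-223-3p match at base 2293 of the 3′ UTR (chr16:9575524-9575546, minus strand): gtgtcatcacagAACTGACtctt
Grin2a miR-223-3p match at base 5187 of the 3′ UTR (chr16:9572630-9572652, minus strand): agtcagtcacagAACTGACctgg
Grin2a miR-223-3p match at base 8891 of the 3′ UTR (chr16:9568926-9568948, minus strand): ttggaaagctcaAACTGACAact
A match to the miR-125b seed was found in the longest 3′ UTR of 13.3% of 20659 genes. It occurred 2 times in Grin2a, 1 time each in Grin2b and Grik3, and in no other member. A match to the miR-223 seed was found in 8.39% of these genes, with 3 in Grin2a, 1 in Grik4 and none in any other member, Grin2b included. The seed of the neuronal miR-9 was also searched, and its match, found in 12.4% of genes, occurred 2 times in Grin2a, 3 times in Grin2b and 1 time each in Grik2 and Grik3. These matches are descriptions of sequence. MicroRNA levels were not analysed here, and a long UTR holds more matches by its length.

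Total counts per library ran from 33795369 to 49824569, and each member had at least 402 counts in every library. For the lower members, such as Grin2d and Grin3a, counting error was of the order of the spread between libraries in some groups. The 10 genes listed as pan-neuronal markers were all tested and summed to between 5389 and 6760 CPM (counts-per-million, scaled with TMM factors) in the 16 libraries, and none was at 0 in any library. Markers of microglia summed to 11.1 to 17.6 CPM and those of endothelial and mural cells to 4.63 to 15.4 CPM, with 5 of 8 and 2 of 7 genes below the filter. Astrocyte markers, all 9 tested, summed to 953 to 1173 CPM in empty-vector, 723 to 1051 CPM in unmutated, 730.2 to 920.5 CPM in 2-mutation and 477 to 687 CPM in 5-mutation libraries. Slc1a2 was the largest part of these sums, at 713, 454, 572 and 393 CPM in the group means, in that order. Among the 9, the median log2 fold change against the empty vector was 0.24, −0.61 and −0.58 for the unmutated, 2-mutation and 5-mutation hairpins. Markers of the oligodendrocyte lineage, 6 of 8 tested, summed to 50.5 to 61.7, 76.9 to 95.7, 39.5 to 45.1 and 76.7 to 94.1 CPM, and the 10 progenitor and cell cycle markers to 55.9 to 65.2, 88.9 to 104, 118 to 161 and 55.4 to 83.9 CPM, in the same order of the 4 groups. With the 5-mutation hairpin Mbp went from 25.8 to 68.5 CPM in the group means, and Olig1 from 18.2 to 9.35 CPM. Nes went from 20.7 to 15.3 CPM there, and Mcm2 from 7.21 to 21.4 CPM. Median log2 fold changes against the empty vector were 0.57, −0.07 and −0.20 for the 6 tested lineage markers (unmutated, 2-mutation, 5-mutation). For the progenitor and cell cycle markers they were 0.44, 0.39 and 0.81. The part of these cells in the results was not tested.

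Levels of different genes were compared per length, as CPM per kilobase of merged exons. With the empty vector the order was Grin2b at 62.6 ± 4.47 (SD, n = 4, as for all such values), Grik5 at 42.7 ± 2.07, Grin1 at 35.5 ± 1.34, Grin2a at 13.6 ± 0.728, Grik3 at 13.3 ± 0.75, Grik2 at 6.92 ± 0.276, Grik1 at 6.03 ± 0.281, Grik4 at 4.85 ± 0.43, Grin3a at 3.98 ± 0.493 and Grin2d at 3.20 ± 0.178 CPM per kilobase. Among neighbours in this order, Grin2a and Grik3 overlapped in their libraries, as did Grik4 and Grin3a. The order rests on the length used: divided by the longest annotated transcript, Grin1 came first at 80.5, before Grin2b at 64.6 and Grik5 at 54.4 CPM per kilobase. With the 2-mutation hairpin Grin1, at 42.1 ± 1.17, and Grin2b, at 41.5 ± 2.23 CPM per kilobase of exons, overlapped, and Grin3a was lowest at 0.986 ± 0.106.

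**Figure D1:**
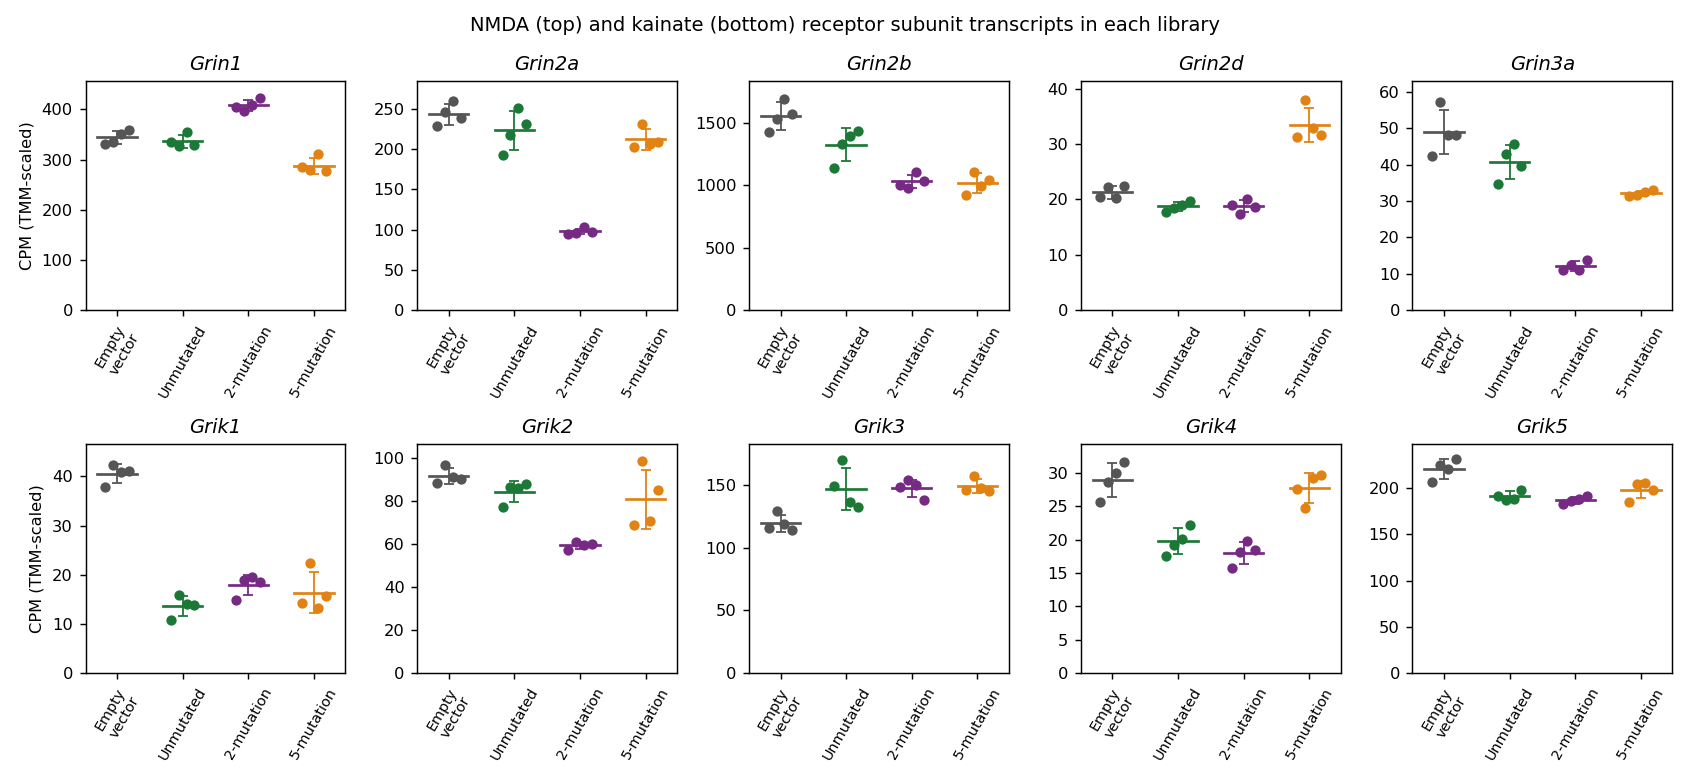
Each panel plots 1 subunit gene, with TMM-scaled counts-per-million from 0 on the vertical axis and the 4 groups on the horizontal axis; points are the 4 libraries of a group, lines the mean and bars the SD. Grin2a and Grin3a are lowest with the 2-mutation hairpin, Grin2d is highest with the 5-mutation hairpin, and Grik1 is lower in all 12 hairpin libraries than in the 4 empty-vector libraries.

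Against the empty vector, more of the called subunit transcripts were lower than higher with each hairpin. The 3 comparisons share the empty-vector libraries. By edgeR's quasi-likelihood test at a Benjamini-Hochberg adjusted p below 0.05 over all tested genes, 7 of the 10 members differed with the unmutated hairpin, 6 lower and 1 higher. Over all tested genes 40.3% differed in that comparison, 19.5% lower and 20.8% higher. With the 2-mutation hairpin all 10 differed, 8 lower and 2 higher, where 63.3% of all genes differed, 30.8% lower and 32.5% higher. With the 5-mutation hairpin 8 differed, 6 lower and 2 higher, where 54.9% of all genes differed, 26.5% lower and 28.4% higher. The median log2 fold change of the members was −0.20, −0.61 and −0.19 for the unmutated, 2-mutation and 5-mutation hairpins, against 0.01, −0.01 and 0.03 over all tested genes. With library totals in place of TMM factors, the unmutated hairpin had 4 members that differed, 3 lower and 1 higher, with 5420 genes higher and 3059 lower against 4054 and 3805 as fitted. The same scaling left 6 members for the 5-mutation hairpin, 4 lower and 2 higher, with 6760 genes higher and 4338 lower against 5540 and 5157. Beside these values, the summed pan-neuronal markers ran from 6217 to 6760 CPM in empty-vector libraries and from 5389 to 5626 CPM with the unmutated hairpin, where 7 of the 10 were lower, and the summed excitatory neuron markers from 1910 to 2110 CPM in empty-vector libraries and from 1096 to 1180 CPM with the 5-mutation hairpin. Of these 8 excitatory markers 4 were lower and 1 higher with the 5-mutation hairpin, with a median log2 fold change of −0.13, and most of the lower sum lay in Slc17a7 (612 to 81.7 CPM in the group means) and Camk2a (807 to 431 CPM). Their part in the members' values was not tested.

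**Figure D2:**
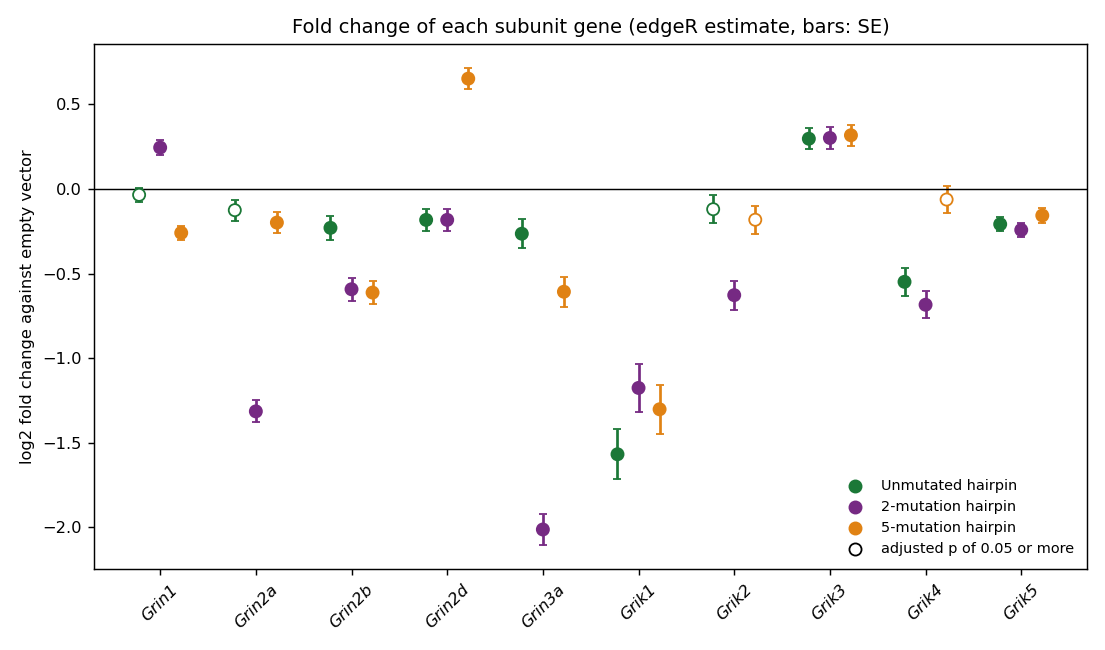
The plot of fold changes shows, for each subunit gene on the horizontal axis, the edgeR log2 fold change against the empty vector for the 3 hairpins, with bars for the SE and open circles where the adjusted p was 0.05 or more. Values run from −2.01 (Grin3a, 2-mutation hairpin) to 0.65 (Grin2d, 5-mutation hairpin).

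Grin1 (ENSMUSG00000026959.13; chromosome 2, 25291181 to 25319187, minus strand), which encodes the subunit that every NMDA receptor needs, moved in opposite directions with the 2 mutated hairpins. It was measured at 332, 335, 350.5 and 359 CPM in the empty-vector libraries, 334, 327, 354 and 329 CPM with the unmutated hairpin, 405, 396, 409 and 423 CPM with the 2-mutation hairpin, and 284, 279, 311 and 277 CPM with the 5-mutation hairpin. Every 2-mutation library lay above, and every 5-mutation library below, all libraries of the other groups. Against the control, the log2 fold change of Grin1 with 2 mutations was 0.25 ± 0.04 (SE; edgeR adjusted p = 3.25e-05) and with 5 mutations −0.26 ± 0.04 (adjusted p = 2.22e-05), and the 2 mutated hairpins differed from each other by 0.50 ± 0.04 (adjusted p = 6.46e-10). For the unmutated hairpin it was −0.03 ± 0.04 (adjusted p = 0.562). The antisense gene Grin1os overlaps Grin1 over 1307 exonic bases and had 2 to 8 counts in any library, beside at least 10872 for Grin1.

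Grin2b (ENSMUSG00000030209.14; chromosome 6, 135713233 to 136173511, minus strand), the GluN2 subunit of immature synapses and the most abundant member in counts, fell with all 3 hairpins. It was measured at 1424, 1531, 1693 and 1572 CPM in the empty-vector libraries, 1142, 1329, 1397 and 1437 CPM with the unmutated hairpin, 1006, 979, 1108 and 1032 CPM with the 2-mutation hairpin, and 919, 1109, 997 and 1043 CPM with the 5-mutation hairpin. The mutated groups lay below all other libraries and overlapped each other, whereas the unmutated group overlapped the empty vector. With 2 mutations the log2 fold change was −0.59 ± 0.07 (SE; edgeR adjusted p = 2.58e-07), and with 5 mutations −0.61 ± 0.07 (adjusted p = 2.34e-07). The unmutated hairpin's −0.23 ± 0.07 passed with an adjusted p of 0.0115, but not without empty-vector library 3 (adjusted p = 0.0502) or with library totals alone (adjusted p = 0.0686). The mutated hairpins differed from each other by 0.02, with a 95% interval of −0.12 to 0.16 (adjusted p = 0.817), and each was below the unmutated hairpin, by 0.36 ± 0.07 (adjusted p = 0.000117) and 0.38 ± 0.07 (adjusted p = 8.74e-05).

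Grin2a (ENSMUSG00000059003.12; chromosome 16, 9567898 to 9995560, minus strand), the GluN2 subunit that gains weight as synapses mature, fell mainly with the 2-mutation hairpin. Its libraries were at 229, 245, 259.7 and 239 CPM in the control group and 192, 218, 251 and 230.3 CPM with the unmutated hairpin, against 94.9, 96.3, 103 and 96.8 CPM with the 2-mutation hairpin and 203, 231, 206 and 208 CPM with the 5-mutation hairpin. The 2-mutation libraries stood apart below all others, and the remaining 3 groups overlapped. Against the control, 2 mutations shifted Grin2a by −1.31 ± 0.06 on the log2 scale (SE; edgeR adjusted p = 1.86e-13), and 5 mutations by −0.20 ± 0.06 (adjusted p = 0.0107). The call for the 5-mutation hairpin was lost with library totals alone (−0.12, adjusted p = 0.141). The unmutated hairpin's −0.13 ± 0.06 did not pass (adjusted p = 0.122). It did pass without unmutated library 3 (−0.19, adjusted p = 0.0158), with no expression filter (adjusted p = 0.044) and with the replicate number as a block (adjusted p = 0.0344). The unmutated and 5-mutation hairpins differed by 0.07 (95% interval −0.05 to 0.20, adjusted p = 0.342), or by 0.14 (adjusted p = 0.0411) without unmutated library 1. The unmutated and 2-mutation hairpins differed by 1.19 ± 0.06 (adjusted p = 8.88e-13), and the 2-mutation and 5-mutation hairpins by −1.12 ± 0.06 (adjusted p = 1.82e-12). Grin2a is the member whose microRNA matches are printed above.

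Grin3a (ENSMUSG00000039579.15; chromosome 4, 49661611 to 49845744, minus strand), the subunit of juvenile NMDA receptors, showed the furthest fall of any member. It was at 42.4, 57.0, 48.0 and 48.2 CPM in the empty-vector libraries, 34.7, 42.9, 45.5 and 39.7 CPM with the unmutated hairpin, 11.1, 12.3, 11.2 and 13.9 CPM with the 2-mutation hairpin and 31.4, 31.6, 32.5 and 33.0 CPM with the 5-mutation hairpin. The 2-mutation libraries did not overlap those of any other group, and the 5-mutation libraries lay between them and the rest. On the log2 scale Grin3a changed by −2.01 ± 0.09 (SE; edgeR adjusted p = 7.82e-13) with 2 mutations and −0.61 ± 0.09 (adjusted p = 8.67e-06) with 5, and the mutated hairpins differed by −1.41 ± 0.09 (adjusted p = 1.25e-10). The fall with the unmutated hairpin, −0.26 ± 0.09 (adjusted p = 0.0207), did not pass without empty-vector library 2, unmutated library 1 or unmutated library 4 (adjusted p 0.0522 to 0.084). It also missed the threshold with library totals alone (adjusted p = 0.0707) and in a fit of those groups alone (adjusted p = 0.0605).

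Grin2d (ENSMUSG00000002771.12; chromosome 7, 45831883 to 45878378, minus strand), which encodes the slowest GluN2 subunit, rose with the 5-mutation hairpin. The libraries were at 20.4, 22.2, 20.2 and 22.5 CPM in the empty-vector libraries, 17.8, 18.5, 19.0 and 19.8 CPM with the unmutated hairpin, 19.0, 17.4, 20.04 and 18.6 CPM with the 2-mutation hairpin, and 31.2, 38.0, 33.0 and 31.7 CPM with the 5-mutation hairpin. All 5-mutation libraries were above all others. With 5 mutations the log2 fold change was 0.65 ± 0.06 (SE; edgeR adjusted p = 1.15e-08). The unmutated hairpin gave −0.18 ± 0.07 (adjusted p = 0.0293) and the 2-mutation hairpin −0.18 ± 0.06 (adjusted p = 0.0182). These small falls were not called when a single library was left out: empty-vector library 2 or 4 or unmutated library 1 or 2 for the first (adjusted p 0.0651 to 0.0921), which was also lost with upper-quartile factors (0.0564) and library totals (0.172), and empty-vector library 2 or 4 or 2-mutation library 2 for the second (adjusted p 0.0535 to 0.0713). The 2-mutation and 5-mutation hairpins differed by −0.84 ± 0.06 (adjusted p = 1.02e-10). The opposite-strand gene Gm45441 overlaps Grin2d over 643 exonic bases, and the strand setting of the counting is not given in the sources used here. Gm45441 was at 3.88 ± 0.213, 6.26 ± 0.668, 0.812 ± 0.168 and 5.93 ± 0.346 CPM in the empty-vector, unmutated, 2-mutation and 5-mutation groups, and its part in the Grin2d values was not tested.

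The shares of Grin2a, Grin2b and Grin2d in their summed CPM per kilobase of exons changed accordingly. Grin2a made up 17.1 ± 0.378% in the control, 18.1 ± 0.75% in the unmutated, 10.96 ± 0.257% in the 2-mutation and 20.5 ± 0.61% in the 5-mutation group. Grin2d made up 4.05 ± 0.34%, 4.13 ± 0.263%, 5.66 ± 0.145% and 8.70 ± 0.377% in the same order. The ratio of Grin2b to Grin2a counts, which needs no scaling between libraries, was 6.23 to 6.58 in control libraries, 5.56 to 6.24 in unmutated, 10.2 to 10.8 in 2-mutation and 4.54 to 5.01 in 5-mutation libraries. The mutated groups thus lay on opposite sides of the empty vector without overlapping it, while the unmutated libraries overlapped it. These ratios are descriptions of transcript levels and say nothing of receptor protein.

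**Figure D3:**
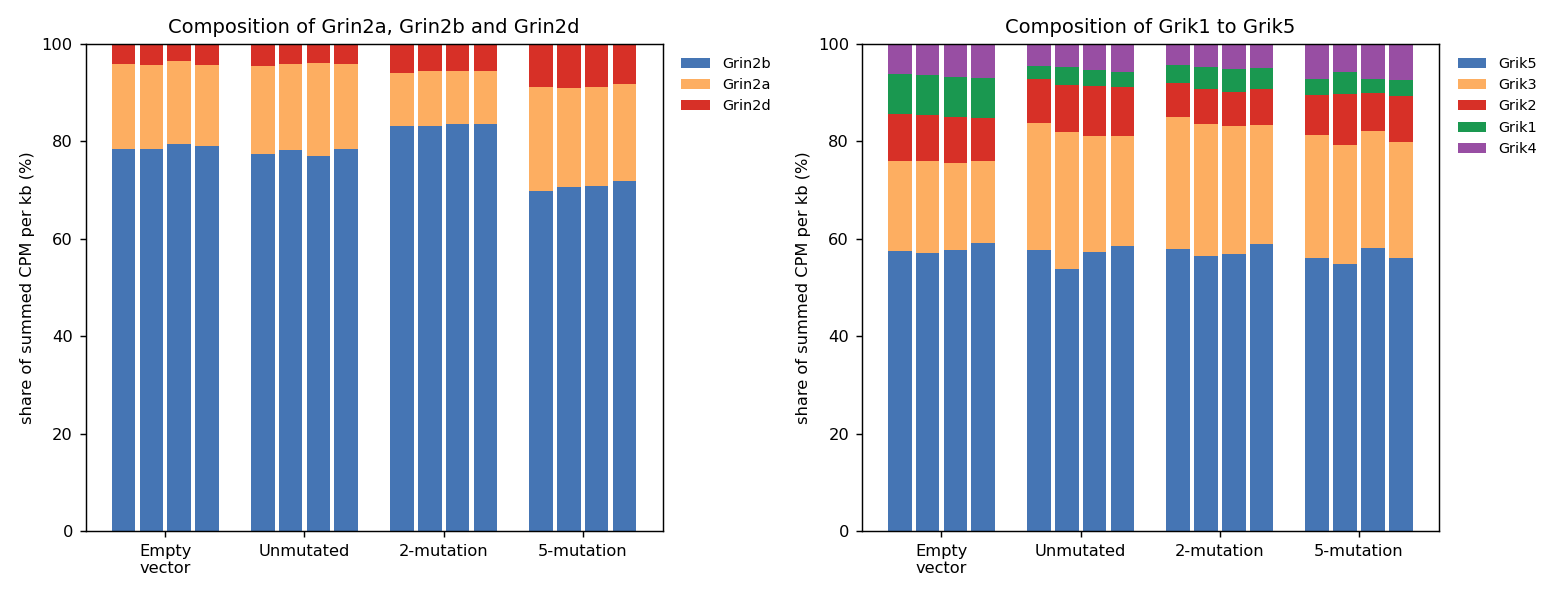
The stacked bars show each of the 16 libraries, grouped on the horizontal axis, with the share of each gene in the summed CPM per kilobase (percent, vertical axis) for Grin2a, Grin2b and Grin2d on the left and for Grik1 to Grik5 on the right. The Grin2a share is 10.96% on average in the 2-mutation libraries and 20.5% in the 5-mutation libraries, and the Grik1 share falls from 8.16% with the empty vector to between 3.11% and 4.25% in the group means of the hairpins.

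The RefSeq promoters (GRCm38.p6, 250 bases before to 50 after the annotated start, both on the minus strand) of Grin1 and Grin2d are shown because these genes moved in opposite directions to each other with the mutated hairpins. With 2 mutations the Grin2d part of this is the small fall of −0.18, whose call was lost when some single libraries were left out. The capitals mark the GC box GGGCGG, which binds Sp-family factors.
Grin1 (chr2:25319138-25319437): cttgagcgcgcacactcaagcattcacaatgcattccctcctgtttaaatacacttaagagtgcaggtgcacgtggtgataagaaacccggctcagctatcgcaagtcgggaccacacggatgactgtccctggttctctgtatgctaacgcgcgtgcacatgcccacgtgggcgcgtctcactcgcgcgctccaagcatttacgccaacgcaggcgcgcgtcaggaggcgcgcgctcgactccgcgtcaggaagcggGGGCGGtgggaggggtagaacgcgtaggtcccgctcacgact
Grin2d (chr7:45866632-45866931): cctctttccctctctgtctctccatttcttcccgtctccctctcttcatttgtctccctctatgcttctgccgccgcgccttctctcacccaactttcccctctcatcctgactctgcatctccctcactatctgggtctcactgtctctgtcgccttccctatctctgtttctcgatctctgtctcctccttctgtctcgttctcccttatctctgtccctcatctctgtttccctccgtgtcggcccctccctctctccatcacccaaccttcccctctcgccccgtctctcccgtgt
The Grin1 window held 1 GC box on either strand, where 35.7% of 32851 promoters of this length held at least 1. It also held 1 match to the EGR motif GCGNGGGCG, which overlaps the GC box and was present in 5.55% of promoters. The Grin2d window held neither, which describes the RefSeq start alone. That window lies inside the GENCODE span of Grin2d, whose upstream end is at 45878378, whereas the Grin1 window spans the upstream end of its gene at 25319187. The sequence around the outer Grin2d end was not searched. Promoters were matched for 6 members, and the others among these had 0 (Grik2), 7 (Grik3), 2 (Grik4) and 2 (Grik5) GC boxes. Neither TGACGTCA, the CRE, present in 1.79% of promoters, nor TATAAA, the core promoter element, in 13.6%, was in any of the 6 windows on either strand. The same held for the nuclear factor Y motif CCAAT, in 37.4% of promoters, for the homeodomain motif TAATTA, in 5.29%, and for the AP-1 motif TGANTCA, in 7.81%. No entry was matched for Grin2a, Grin2b, Grin3a and Grik1.

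Among the kainate receptor genes, Grik1 (ENSMUSG00000022935.16; chromosome 16, 87895900 to 88290265, minus strand), which encodes GluK1 and is known to be prominent in forebrain interneurons, fell furthest, and with every hairpin. It was measured at 37.9, 42.3, 40.8 and 41.1 CPM in the empty-vector libraries, 10.8, 15.9, 14.0 and 13.8 CPM with the unmutated hairpin, 14.9, 18.9, 19.5 and 18.6 CPM with the 2-mutation hairpin and 14.2, 22.3, 13.1 and 15.8 CPM with the 5-mutation hairpin. No hairpin library overlapped the empty vector, and the hairpin groups overlapped one another. The log2 fold changes against the empty vector were −1.57 ± 0.15 (SE; edgeR adjusted p = 5.54e-07), −1.18 ± 0.14 (adjusted p = 3.22e-06) and −1.30 ± 0.15 (adjusted p = 1.53e-06) for the unmutated, 2-mutation and 5-mutation hairpins. Between hairpins, the unmutated was below the 2-mutation by 0.39 on the log2 scale (−0.39 ± 0.15, adjusted p = 0.0333). That call was lost without unmutated library 1, 3 or 4 or 2-mutation library 2, 3 or 4 (adjusted p 0.0572 to 0.106), and with upper-quartile factors (adjusted p = 0.0645) or library totals (adjusted p = 0.153). The 2-mutation and 5-mutation hairpins differed by 0.13 (95% interval −0.16 to 0.42, adjusted p = 0.471), or by 0.32 (adjusted p = 0.0156) without 5-mutation library 2. The unmutated and 5-mutation hairpins differed by −0.27 (95% interval −0.56 to 0.03, adjusted p = 0.153). This difference passed with no expression filter (adjusted p = 0.00066) and with the replicate number as a block (adjusted p = 0.0374).

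Most of the listed markers of inhibitory neurons were, like Grik1, lower with each hairpin. All 10 on the list were tested and none was at 0. With the unmutated hairpin 9 were lower and none higher, with the 2-mutation hairpin 7 lower and 2 higher, and with the 5-mutation hairpin 9 lower and none higher, and their median log2 fold changes were −1.46, −1.16 and −1.25. Over all tested genes 40.3%, 63.3% and 54.9% differed from the empty vector, with medians of 0.01, −0.01 and 0.03. Their summed level ran from 744 to 837 CPM in control, 179 to 330 CPM in unmutated, 229 to 332 CPM in 2-mutation and 309 to 417 CPM in 5-mutation libraries. Gad2, which makes GABA, went from 170.2 ± 16.5 CPM to 37.9 ± 19.6, 17.1 ± 7.82 and 40.4 ± 15.1 CPM in the unmutated, 2-mutation and 5-mutation groups. By contrast, Dlx2 went from 3.98 to 8.21 CPM and Dlx5 from 4.75 to 7.55 CPM with the 2-mutation hairpin (group means). Sst was at 68.6 CPM in the control and 64.7 CPM in the 5-mutation group. In bulk RNA, fewer cells of a type and less RNA per cell cannot be told apart, and the part of inhibitory neurons in the Grik1 values was not tested.

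**Figure D4:**
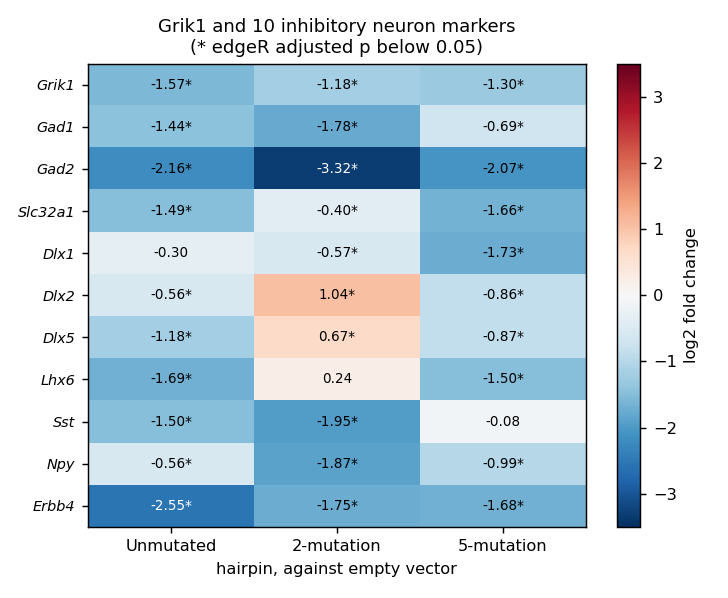
The heat map gives the log2 fold change against the empty vector (colour and number) of Grik1 and of 10 inhibitory neuron markers (rows) for the 3 hairpins (columns), with an asterisk where the edgeR adjusted p was below 0.05. Grik1 is lower in each column, as is Gad2, whereas Dlx2 and Dlx5 are higher with the 2-mutation hairpin.

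Grik3 (ENSMUSG00000001985.9; chromosome 4, 125490700 to 125714173, plus strand), which encodes GluK3, a subunit of low glutamate sensitivity, was the kainate receptor gene that rose. It was at 116, 129, 119 and 114 CPM in the empty-vector libraries, 149.6, 169.9, 136 and 132 CPM with the unmutated hairpin, 148, 154, 150.0 and 138 CPM with the 2-mutation hairpin and 146, 158, 148 and 145 CPM with the 5-mutation hairpin. Each hairpin library was above all empty-vector libraries, and the hairpin groups overlapped. The log2 fold changes were 0.30 ± 0.06 (SE; edgeR adjusted p = 0.000626), 0.30 ± 0.06 (adjusted p = 0.000249) and 0.32 ± 0.06 (adjusted p = 0.000184) for the unmutated, 2-mutation and 5-mutation hairpins. Differences between the hairpins lay between −0.02 and −0.0045, with 95% intervals from −0.14 to 0.12 (adjusted p 0.807 to 0.957). The sign of these 3 differences changed under alternatives or leave-outs.

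Grik2 (ENSMUSG00000056073.16; chromosome 10, 49094833 to 49788766, minus strand), which encodes GluK2, the main pore-forming kainate subunit of principal neurons, fell with the 2-mutation hairpin. Its libraries were at 88.5, 96.9, 91.1 and 90.0 CPM in the empty-vector libraries, 77.2, 86.5, 85.8 and 87.8 CPM with the unmutated hairpin, 57.2, 60.8, 59.3 and 59.9 CPM with the 2-mutation hairpin and 68.7, 98.5, 70.7 and 84.9 CPM with the 5-mutation hairpin. The 2-mutation libraries were below all others, and the 5-mutation libraries were the most spread. The 2-mutation hairpin's log2 fold change was −0.63 ± 0.08 (SE; edgeR adjusted p = 4.17e-06). It was −0.12 ± 0.08 (adjusted p = 0.285) for the unmutated hairpin, although no library of those groups overlapped, and −0.18 ± 0.08 (adjusted p = 0.0784) for the 5-mutation hairpin. Without 5-mutation library 2, the highest, the last value was −0.29 (adjusted p = 0.000263), and the difference between the unmutated and 5-mutation hairpins was 0.17 (adjusted p = 0.0189) in place of 0.06 (adjusted p = 0.564). Against the empty vector the 5-mutation hairpin also passed with DESeq2 (−0.20, adjusted p = 0.0299), with no expression filter (adjusted p = 0.00244) and without Gm26917 and Gm42418 (adjusted p = 0.0428). It passed as well with the replicate number as a block (−0.19, adjusted p = 0.0137).

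Grik4 (ENSMUSG00000032017.14; chromosome 9, 42518135 to 42944493, minus strand) and Grik5 (ENSMUSG00000003378.9; chromosome 7, 25009849 to 25072346, minus strand) encode the high-affinity subunits that need GluK1 to GluK3 as partners. Grik4 was at 25.6, 28.6, 29.9 and 31.6 CPM in the empty-vector libraries, 17.6, 19.2, 20.1 and 22.2 CPM with the unmutated hairpin, 15.8, 18.1, 19.8 and 18.4 CPM with the 2-mutation hairpin and 27.6, 24.7, 29.2 and 29.6 CPM with the 5-mutation hairpin. The unmutated and 2-mutation groups lay below the others, and the 5-mutation group overlapped the empty vector. Its log2 fold change with the unmutated hairpin was −0.55 ± 0.08 (SE; edgeR adjusted p = 1.25e-05), with 2 mutations −0.68 ± 0.08 (adjusted p = 2.11e-07) and with 5 mutations −0.06 ± 0.08 (adjusted p = 0.539). The 5-mutation hairpin differed from the unmutated (−0.49 ± 0.08, unmutated minus 5-mutation, adjusted p = 2.74e-05) and from the 2-mutation hairpin (−0.62 ± 0.08, adjusted p = 6.97e-07).

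Grik5, the kainate subunit gene with the highest level per kilobase, fell a little with all 3 hairpins. Its libraries ran from 206 to 231 CPM in the control group, 187 to 198 CPM in the unmutated, 182 to 191 CPM in the 2-mutation and 186 to 205 CPM in the 5-mutation group. The hairpin groups overlapped each other and none reached the lowest empty-vector library. The log2 fold changes were −0.21 ± 0.04 (SE; edgeR adjusted p = 0.000359), −0.24 ± 0.04 (adjusted p = 2.79e-05) and −0.16 ± 0.04 (adjusted p = 0.00295), the last of which did not pass with library totals alone (adjusted p = 0.0979). The 2-mutation and 5-mutation hairpins differed by −0.09 ± 0.04 (adjusted p = 0.0771), or by −0.12 (adjusted p = 0.0203) without 5-mutation library 1. This difference also passed with upper-quartile factors (adjusted p = 0.00984), library totals (−0.22, adjusted p = 4.05e-05), the stricter filter (adjusted p = 0.0137), the replicate number as a block (adjusted p = 0.0379) and without Gm26917 and Gm42418 (adjusted p = 0.0496).

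Hairpins were also compared with each other. Of the 10 members, 6 differed between the unmutated and the 2-mutation hairpin, where 62.7% of all genes did. Of these, 4 were NMDA and 2 kainate receptor genes. Between the unmutated and the 5-mutation hairpin 5 differed, 4 NMDA and 1 kainate, where 55.3% of all genes did, and between the mutated hairpins 6 differed, 4 NMDA and 2 kainate, where 65.9% of all genes did. The shares of members called were thus near those of all genes. With library totals alone the members split into 6 higher and 1 lower between the unmutated and 2-mutation hairpins, in place of 4 and 2. Over all genes that scaling gave 7349 higher and 4939 lower in place of 6070 and 6145 in this comparison, and 5047 and 8060 in place of 6285 and 6553 between the mutated hairpins.

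Members also differed in how alike they were across the 16 libraries, given here as Pearson correlations of log2 CPM. The libraries form 4 groups, so these values mostly compare group patterns and are descriptions without a test. Grin2a was most like Grin3a (r = 0.98) and Grik2 (r = 0.92) among members, all of them lowest with the 2-mutation hairpin. Grin1 and Grin2d were the least alike (r = −0.78). Among 10852 candidate genes (with symbols other than predicted or clone names, and mean log2 CPM from 2 upwards), the genes most like each member were Plxdc2 and Adgrl3 for Grin2a (r = 0.99 for both), Pcdhb20 and Icam5 for Grin3a (r = 0.99 for both), Rbms3 and Nxph1 for Grik1 (r = 0.98 for both), Nr2c2ap and Adam9 for Grin1 (r = 0.98 for both), and Jph1 and Ahnak2 for Grin2d (r = 0.98 and 0.97). They were Dnajb14 and Unc5d for Grin2b (r = 0.98 for both), Zfp964 and Csmd1 for Grik2 (r = 0.96 for both), Ndc1 and Fem1b for Grik4 (r = 0.97 and 0.95), Per2 and Slc44a5 for Grik5 (r = 0.94 and 0.93) and Mfsd10 and Rrp1b for Grik3 (r = 0.91 and 0.87).

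Auxiliary proteins and anchors of these receptors were followed in a list of 36 partner genes, of which 35 were matched and tested. With the unmutated hairpin 17 were lower and 6 higher (median log2 fold change −0.12), with the 2-mutation hairpin 21 lower and 9 higher (median −0.20), and with the 5-mutation hairpin 22 lower and 10 higher (median −0.20), beside the shares over all genes given above. Neto1 and Neto2 encode auxiliary subunits that modulate kainate receptors. Neto1 fell with each hairpin (log2 fold change −0.98 ± 0.15, −0.73 ± 0.15 and −0.58 ± 0.15, SE; edgeR adjusted p = 0.000107, 0.000557 and 0.00389 for the unmutated, 2-mutation and 5-mutation hairpins). Neto2 was at 156 ± 12.1 CPM in the control, 91.3 ± 7.18 CPM in the unmutated, 287 ± 11.9 CPM in the 2-mutation and 111 ± 5.34 CPM in the 5-mutation group, so that it fell by 0.77 and 0.48 on the log2 scale with the unmutated and 5-mutation hairpins and rose by 0.88 with the 2-mutation hairpin.

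Of the scaffolds that anchor NMDA receptors, Dlg4 (PSD-95) fell by 0.14, 0.16 and 0.15 and Dlg3 (SAP102) fell by 0.29, 0.20 and 0.31 on the log2 scale, in the same order. Dlg2 (PSD-93), at −2.98 ± 0.04 (edgeR adjusted p = 1.86e-22), had the smallest p of the list with the 2-mutation hairpin. It was followed by the ephrin receptor gene Ephb2 (−1.42), the adhesion gene Lrrc4 (−1.32) and Rasgrf1, a Ras exchange factor gene (1.24). With the unmutated hairpin the smallest p values were those of the kinesin gene Kif21b (−0.66), Rasgrf1 (0.75), Neto2 and the scaffold gene Grip1 (−0.44). With the 5-mutation hairpin they were those of Rasgrf2 (−1.80), the sorting nexin gene Snx27 (−1.18), Kif21b (−1.25) and the calsyntenin gene Clstn1 (−0.94).

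**Figure D5:**
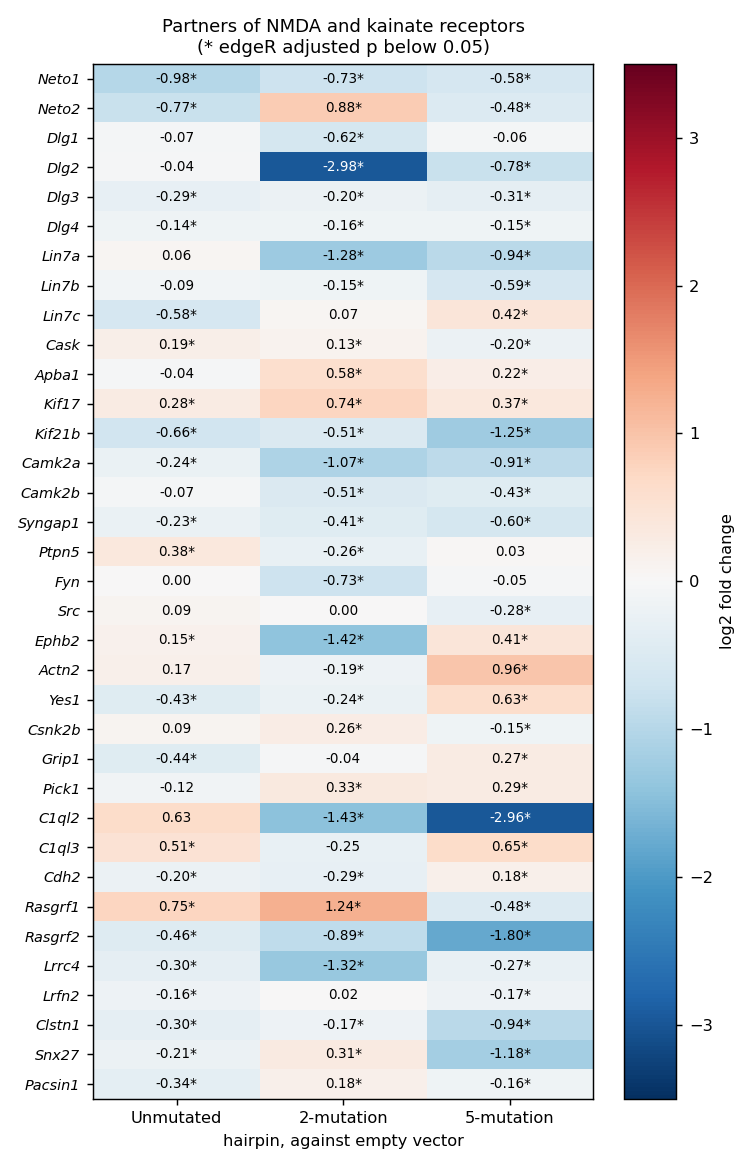
The heat map gives the log2 fold change against the empty vector (colour and number) of the 35 tested partner genes (rows) for the 3 hairpins (columns), with an asterisk where the edgeR adjusted p was below 0.05. Neto2 is lower in the outer columns (−0.77 and −0.48) and higher in the middle column (0.88), and Dlg2 is darkest with the 2-mutation hairpin.

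Of the remaining ionotropic glutamate receptor genes, 9 were listed and tested. With the unmutated hairpin 6 were lower and 1 higher, with the 2-mutation hairpin 5 lower and none higher, and with the 5-mutation hairpin 5 lower and 1 higher. Over all tested genes 40.3%, 63.3% and 54.9% differed in these comparisons, so the 2-mutation count was below the share of all genes. Among those with the smallest p, the AMPA receptor gene Gria1 was at −1.03, −0.53 and −1.09 and Gria4 at −0.76, −0.47 and −0.51 (log2 fold change, in the order unmutated, 2-mutation, 5-mutation). Grin2c, the GluN2 subunit of the cerebellum, and Grin3b stayed below 1 CPM in every library, with 5 to 35 and 2 to 18 counts. Grin2c did not pass in any of these comparisons (edgeR adjusted p 0.31 to 0.886). Grin3b was the gene called higher with the unmutated and 5-mutation hairpins (adjusted p = 0.0111 and 0.0213), with libraries that overlapped the empty vector.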

How the data were processed

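The submitters' processing notes list the build GRCm38.p6 and, among the tools of the authors, STAR 2.7.2b, featureCounts, edgeR, cutadapt 1.15 with Trim Galore 0.6.0, and bcl2fastq 2.20.0.422. The deposited values are raw counts per Ensembl gene, which the authors made with featureCounts per the submitters' processing notes. Strand setting, multi-mapped reads and annotation release are not given in the sources used here, although per the labels' protocols the libraries are directional (dUTP) and made from 100 ng of RNA. All 16 columns were mapped by title. Symbols, positions and exon lengths came from GENCODE vM21 (GRCm38): 55154 of 55335 IDs matched.

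Genes were filtered with filterByExpr, scaled with TMM, then modelled by robust quasi-likelihood using edgeR 4.0.16 under R 4.3.3, all 16 libraries in 1 model with 1 coefficient per group, and p-values were adjusted over 19479 genes (threshold 0.05). SE is the log2 fold change over the square root of F. No library was counted as a copy of another: pairs within a group gave chi-square values over genes of 3.48 to 24.5 per degree of freedom, above sampling noise. The fit was also run on simulated counts with changes planted in 200 genes of the unmutated group. All other genes had equal means there, whereas 40.3% to 65.9% of genes differed in the data, so that run could not test the scaling. Alternatives were DESeq2 1.42.0, upper-quartile factors, library totals alone, no filter, a stricter filter (1 CPM in 8 libraries), a fit of the compared groups alone, a replicate block, the removal of Gm26917 and Gm42418, and each library left out. Members, gene lists and tests were chosen with earlier results of these data known. Named are all members and, of each list, up to 4 genes with the smallest p in a comparison with the empty vector, with Neto1, Neto2, Dlg3, Dlg4, Grin2c and Grin3b, and the 2 most alike genes per member. The rule for promoters chose Grin3a and Grik1, which had no entry. Among members with an entry the largest called changes were those of Grin2d and Grik4, and the Grik4 promoter is not printed. The promoters printed were chosen after values were seen, as were the microRNAs. Protein sequences were not used here.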

Additional observations from a re-analysis of the deposited data

How the results depend on the processing

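Every count of called genes, over members, partners and all genes, stayed within 1.5 times its value under each alternative, except that with library totals alone 4 in place of 7 members differed between the unmutated hairpin and the empty vector. That scaling gave a median log2 fold change over all genes of −0.18 in place of −0.05 (2-mutation against 5-mutation), 0.14 in place of 0.02 (unmutated against 2-mutation) and 0.11 in place of 0.03 (5-mutation against empty vector). Of 480 refits of members' fold changes without leave-outs, 438 kept direction and call, 16 newly passed, 9 no longer passed and 17 changed sign, each of the last from a value that was not called; the cause was not tested. For Grin2d, unmutated against 2-mutation, the values were 0.0327 (upper quartile), 0.1188 (library totals), 0.023 (stricter filter), 0.028 (without Gm26917 and Gm42418), 0.0359 (compared groups alone) and −0.035 to 0.031 over leave-outs. For Grik3 in that comparison they were 0.0278, 0.1141, 0.0183, 0.0233 and 0.0312, and −0.08 to 0.043. For Grin2b, 2-mutation against 5-mutation, they were −0.0252, −0.1165 and −0.0116 (upper quartile, library totals, stricter filter), and −0.027 to 0.063. Library totals gave 0.0279 for Grin1 (unmutated against empty vector), 0.0159 for Grik4 (5-mutation against empty vector) and −0.0142 for Grik1 (2-mutation against 5-mutation), and DESeq2 gave 0.0036 for Grik3 (2-mutation against 5-mutation). Leave-outs ranged from −0.035 to 0.016 there, from −0.10 to 0.028 for Grik3 and from −0.0097 to 0.17 for Grik2 (both unmutated against 5-mutation).

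Of 24 same-numbered pairs, 20 correlated best with their own number among the 4 libraries of the other group. The correlations were low (−0.0215 to 0.272), with 12 of 24 above 0.1. Nothing in the labels ties equal numbers to 1 culture or day. No pairing was assumed in the main fit, so any structure shared by number was left in its spread. With the replicate block, 8, 10 and 9 members differed from the empty vector for the unmutated, 2-mutation and 5-mutation hairpins, in place of 7, 10 and 8. The block added calls for Grin2a (unmutated against empty vector, adjusted p = 0.0344), Grik2 (5-mutation against empty vector, 0.0137), Grik4 (unmutated against 2-mutation, 0.0451), Grik1 (unmutated against 5-mutation, 0.0374) and Grik5 (2-mutation against 5-mutation, 0.0379).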

Other observations

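The supply of glutamate and of the NMDA receptor co-agonists was followed in a list of 19 genes, of which 18 were tested. With the unmutated hairpin 6 were higher and 4 lower (median log2 fold change 0.13), with the 2-mutation hairpin 6 higher and 6 lower (median −0.08), and with the 5-mutation hairpin 4 higher and 10 lower (median −0.53). Over all tested genes 40.3%, 63.3% and 54.9% differed in these comparisons, so the share called with the 2-mutation hairpin was near that of all genes. The vesicular glutamate transporter gene Slc17a7 (VGLUT1) was at 612 ± 27.1 CPM (SD, n = 4) in the control and 81.7 ± 5.81 CPM in the 5-mutation group, and fell by 2.90 on the log2 scale (SE 0.05, edgeR adjusted p = 3.78e-20), while it rose with the 2-mutation hairpin (0.25 ± 0.05, adjusted p = 0.000204). Its relative Slc17a6 (VGLUT2) rose from 26.5 ± 1.25 to 138 ± 7.7 CPM with the 2-mutation hairpin, by 2.38 ± 0.15 on the log2 scale (SE, adjusted p = 2.72e-09), and also with the 5-mutation hairpin (1.62 ± 0.15, adjusted p = 2.7e-07). Shmt1, a serine and glycine enzyme gene, was higher with the 2-mutation hairpin (1.87 ± 0.19, adjusted p = 1.41e-08). Of the co-agonist genes, serine racemase (Srr), which makes D-serine, was lower with the unmutated and 5-mutation hairpins (−0.44 ± 0.04 and −0.62 ± 0.04, adjusted p = 9.43e-09 and 1.4e-11), and the glycine transporter gene Slc6a9 was higher with the unmutated hairpin (0.69 ± 0.06, adjusted p = 3.56e-09) and lower with the 5-mutation hairpin (−0.65 ± 0.06, adjusted p = 5.76e-09).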
